A study of Mus musculus with 12 samples.

Results

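The 9 genes described here, Vil1, Lgals4, Myo15b, Cblc, Lrrc26, Stra6, Eomes, Epb41l4b and Acox2, were chosen by their RNA levels, because they were among the genes most lowered in 393P cells with wild-type Zeb1 relative to the vector control. They are 9 of the 12208 genes listed with counts in the table, and all 9 passed the filter on low counts. 393P is a mouse lung adenocarcinoma line, epithelial and non-metastatic by its label. The groups were 393P cells labelled Zeb1_mimetic, Zeb1_deficient, Zeb1_WT and GFP_Vector, called mimetic, deficient, WT and vector here. The study concerns acetylation of a lysine of Zeb1, so the mimetic and deficient lines are read as acetylation-mimetic and acetylation-deficient forms of the protein. None of the lines was treated, and all share the 393P background. Each group had 3 libraries called biological replicates in their labels, while the design text of the series gives 2 per sample; n = 3 is used here, and which is right could not be settled. Each form is represented by 1 line, so a p-value reads only library-to-library spread, which may be technical, and a difference between Zeb1 forms cannot be told apart from other differences between lines.

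Zeb1 is a zinc-finger repressor of epithelial genes that acts through E-box motifs in DNA and drives epithelial-mesenchymal transition. The brush border is the carpet of microvilli on absorptive epithelia, in which actin filaments are bundled by villin and plastin and tethered to the membrane by myosins and ezrin. Villin and galectin-4 are best known from the gut, a tissue that like the lung derives from embryonic endoderm. The other genes on the list have roles in receptor turnover, ion channels, retinoid uptake, cell fate, the membrane skeleton and peroxisomal lipid oxidation, so the set is united by its response and not by a single function.

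Levels are CPM, 3' tag counts scaled to a common library size with TMM factors. Library totals were 24356697 to 27457818 counts in mimetic, 31010854 to 32950740 in deficient, 28402017 to 35773638 in WT and 33301106 to 39029599 in vector. Zeb1 RNA averaged 228 ± 12.2 CPM in mimetic, 484 ± 13.1 in deficient, 244 ± 6.87 in WT and 31.3 ± 2.79 in vector (SD, n = 3 each), so the deficient line had the highest Zeb1 RNA, and the part of that difference in the results below was not tested. Of 9 epithelial markers 7 were listed, and they summed to 5944 to 6096 CPM in mimetic, 8441 to 8576 in deficient, 4499 to 4643 in WT and 9683 to 11112 in vector. Keratins Krt8 and Krt18 made up most of this sum in each line. Dsp averaged 61.7 CPM in mimetic, 144 in deficient, 3.98 in WT and 110.8 in vector. In the same order Krt7 averaged 336.7, 762, 58.8 and 866 CPM, Cdh1 286.7, 445, 198 and 670.1 CPM and Krt19 1028, 1252, 570 and 1617 CPM. These were lowest in WT, while Cldn6 was lowest in mimetic, at 307.5, 613, 322 and 523.5 CPM in that order. The part of this in the results below was not tested. The 3 of 8 fibroblast markers listed summed to 1.07 to 3.47 CPM over all libraries, and of 13 leukocyte, NK and T cell markers only Cd68 was listed, at 2.12 to 8.43 CPM. The 2 of 5 endothelial markers listed summed to 2.61 to 3.11 CPM in mimetic, 5.37 to 7.16 in deficient, 0.736 to 1.14 in WT and 0.291 to 1.02 in vector, mostly from Kdr, so such sums reach or pass the CPM values of Stra6 and Lrrc26 given below. In such bulk RNA, fewer cells of a type and less RNA per cell cannot be told apart.

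The promoters of 8 of the 9 genes are held in RefSeq on GRCm38.p6, in windows of 300 bases that run from 250 before the annotated start to 50 after it. They were searched on both strands for CAGGTG, which reads CACCTG on the other strand, the E-box form that ZEB1 is known to bind. Of these 8 genes, 4 held it (Vil1, Lgals4, Lrrc26 and Acox2), beside 22.6% of the 27025 genes in that table. The windows of these 4 genes are given below with the E-box in capitals. The window of Myo15b, which has none, follows. By log2 fold change Myo15b was the most lowered of the tested genes in WT. The windows of Myo15b and Lgals4 end at bases 115857974 and 28833843, ahead of the gene starts in GENCODE, 115858406 and 28833854. They therefore do not cover those starts.
Vil1, chr1:74409134-74409433, plus strand: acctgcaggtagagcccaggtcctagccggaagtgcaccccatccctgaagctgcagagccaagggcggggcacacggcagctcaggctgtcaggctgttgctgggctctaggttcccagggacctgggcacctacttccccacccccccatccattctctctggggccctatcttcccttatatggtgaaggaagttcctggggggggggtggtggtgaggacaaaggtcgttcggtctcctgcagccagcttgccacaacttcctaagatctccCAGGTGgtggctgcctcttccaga
Lgals4, chr7:28833544-28833843, plus strand: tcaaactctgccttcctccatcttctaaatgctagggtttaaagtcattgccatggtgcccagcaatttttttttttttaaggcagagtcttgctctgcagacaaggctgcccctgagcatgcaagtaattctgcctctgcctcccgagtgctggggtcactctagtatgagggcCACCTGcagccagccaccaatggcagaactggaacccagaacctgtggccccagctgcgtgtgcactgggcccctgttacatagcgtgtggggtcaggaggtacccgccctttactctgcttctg
Lrrc26, chr2:25289661-25289960, plus strand: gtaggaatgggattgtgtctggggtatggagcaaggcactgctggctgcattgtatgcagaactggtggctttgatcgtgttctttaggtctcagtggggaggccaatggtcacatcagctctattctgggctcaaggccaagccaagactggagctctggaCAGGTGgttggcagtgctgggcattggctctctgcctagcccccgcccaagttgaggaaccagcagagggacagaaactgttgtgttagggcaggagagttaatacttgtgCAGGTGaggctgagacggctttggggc
Acox2, chr14:8258970-8259269, minus strand: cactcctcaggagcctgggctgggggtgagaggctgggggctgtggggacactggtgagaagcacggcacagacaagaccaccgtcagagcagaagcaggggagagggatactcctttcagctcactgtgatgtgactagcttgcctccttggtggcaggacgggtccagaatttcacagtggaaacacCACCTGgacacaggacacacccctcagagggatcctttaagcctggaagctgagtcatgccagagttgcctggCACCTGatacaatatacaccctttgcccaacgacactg
Myo15b, chr11:115857675-115857974, plus strand: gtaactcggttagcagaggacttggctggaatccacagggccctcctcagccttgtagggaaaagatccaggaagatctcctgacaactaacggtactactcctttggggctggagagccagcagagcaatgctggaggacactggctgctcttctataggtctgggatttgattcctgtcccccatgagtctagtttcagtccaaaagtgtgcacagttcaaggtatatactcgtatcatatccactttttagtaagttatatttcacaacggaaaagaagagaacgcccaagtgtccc
With the start as base 0, the E-box began at base 26 in Vil1, at -75 in Lgals4, at -88 and 23 in Lrrc26 and at -61 and 12 in Acox2. A second Acox2 window, from another annotated start, covers the same pair of sites. The windows of Stra6, Eomes and Epb41l4b lack these letters, and the GC content of the members' windows ran from 47.3% to 85% in Epb41l4b, against a median of 52.7% over all windows. A match is a description of the letters, and binding was not measured.

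Villin (Vil1, ENSMUSG00000026175, chromosome 1, 74409376 to 74435559, GRCm38), which bundles and severs actin in microvilli, stood at 1.12, 2.13 and 1.52 CPM in mimetic, 1.99, 2.21 and 1.41 in deficient, 0.486, 0.198 and 0.214 in WT, and 30.9, 32.2 and 35.2 in vector. The vector libraries lay far above all others, the WT libraries lowest, and those of the mutants overlapped. The mean was 4.85% of the vector mean in mimetic, 5.71% in deficient and 0.913% in WT. Vil1 was thus the member with the lowest share of its vector level in both mutants.

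**Figure D1:**
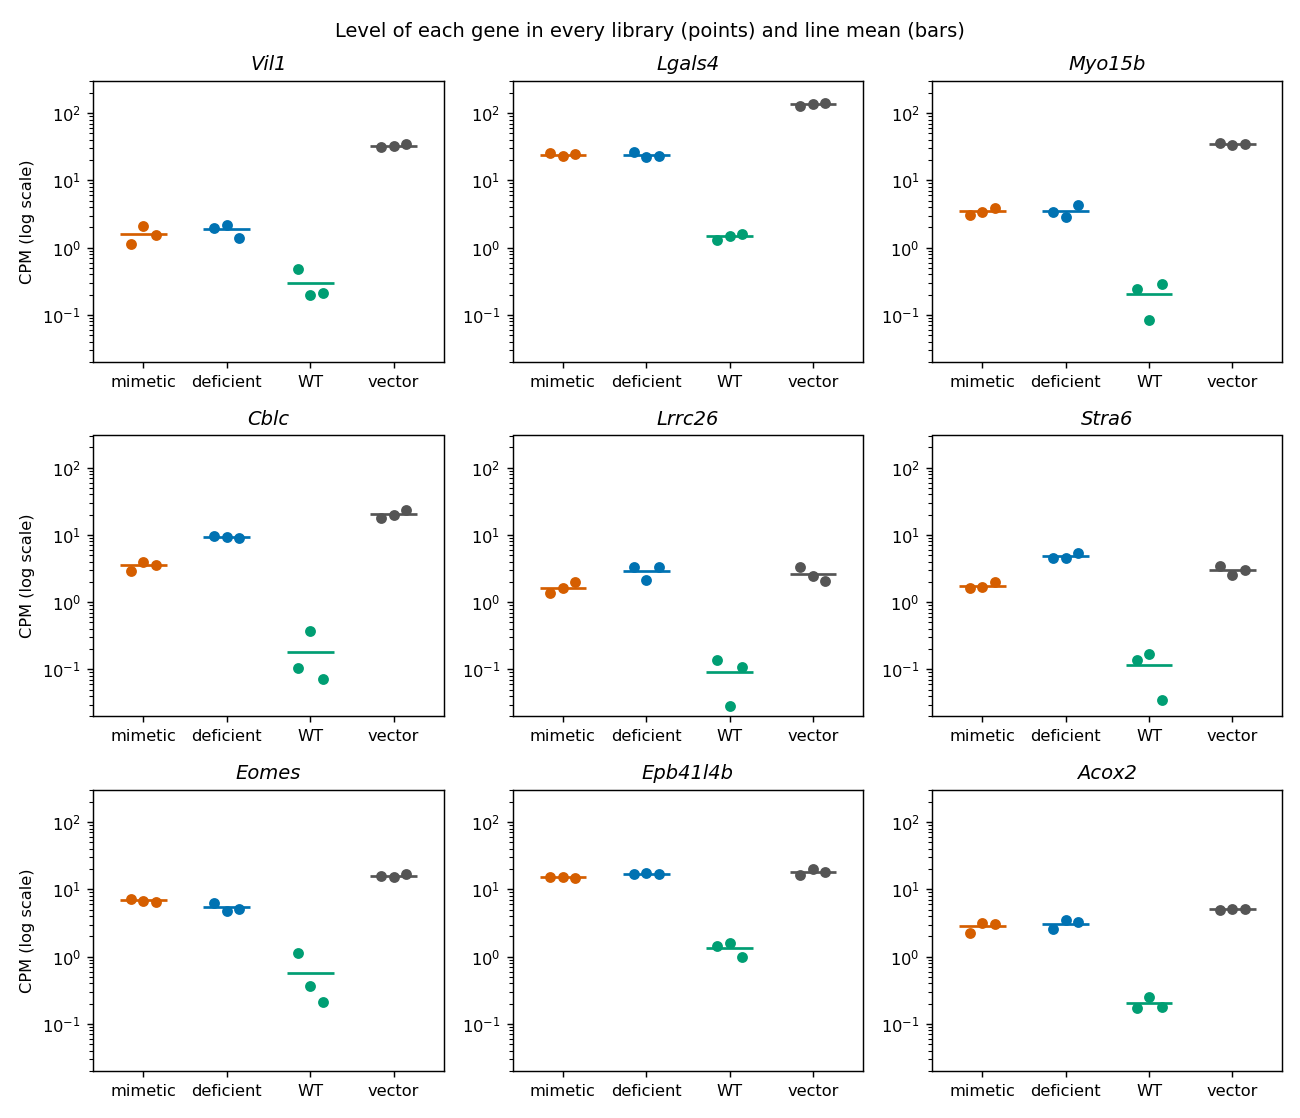
CPM on a log axis of each of the 9 genes in every library (points, 3 per line) with the line mean as a bar, for mimetic, deficient, WT and vector. The WT libraries are lowest for every gene, and the mutants lie far below vector for Vil1, Myo15b and Lgals4 but close to it for Epb41l4b.

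The unconventional myosin Myo15b (chromosome 11, 115858406 to 115892603) had 3.11, 3.44 and 3.86 CPM in mimetic, 3.41, 2.89 and 4.36 in deficient, 0.243, 0.0849 and 0.285 in WT, and 36.2, 33.3 and 34.8 in vector. Galectin-4 (Lgals4, chromosome 7, 28833854 to 28841708), a sugar-binding protein of gut epithelium that takes part in apical membrane traffic, had 25.4, 22.7 and 24.4 CPM in mimetic, 26.8, 22.4 and 23.0 in deficient, 1.32, 1.499 and 1.60 in WT, and 128, 134.8 and 142 in vector. Both had the order of Vil1, with vector above the mutants, the mutants overlapping and WT lowest. Some mouse strains carry Lgals6, a near-identical copy of Lgals4, and reads of the pair cannot be told apart here.

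Cblc (chromosome 7, 19778881 to 19796809), the epithelial member of the CBL family of ubiquitin ligases that turn over receptor tyrosine kinases, had 2.95, 3.96 and 3.61 CPM in mimetic, 9.68, 9.35 and 9.05 in deficient, 0.104, 0.368 and 0.0712 in WT, and 18.0, 19.7 and 23.4 in vector. Its lines did not overlap: WT was lowest, mimetic next, then deficient, and vector highest. WT replicate 2 held 13 of the 18 Cblc counts of that line, and without it the log2 fold change of WT against vector went to -7.79, against -6.68 with it.

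Stra6 (chromosome 9, 58063788 to 58153996), the receptor that takes up retinol from its binding protein, had 1.64, 1.68 and 1.98 CPM in mimetic, 4.55, 4.53 and 5.39 in deficient, 0.139, 0.170 and 0.0356 in WT, and 3.42, 2.55 and 3.04 in vector. Here the deficient line was highest, and no 2 lines overlapped. Lrrc26 (chromosome 2, 25289915 to 25291180), an auxiliary subunit of the BK potassium channel of secretory epithelia, had 1.36, 1.61 and 1.98 CPM in mimetic, 3.29, 2.11 and 3.31 in deficient, 0.139, 0.0283 and 0.107 in WT, and 3.36, 2.46 and 2.06 in vector. Its deficient and vector libraries overlapped, the mimetic libraries lay below both, and WT was lowest. In WT the Stra6 values rest on 11 counts in all and those of Lrrc26 on 8.

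Eomes (chromosome 9, 118478212 to 118486132), a T-box transcription factor of endoderm formation that NK and T cells also use, had 7.26, 6.65 and 6.59 CPM in mimetic, 6.21, 4.78 and 5.17 in deficient, 1.14, 0.368 and 0.214 in WT, and 15.8, 15.3 and 16.9 in vector. Mimetic libraries were all above deficient ones. WT replicate 1 held 33 of 52 Eomes counts in that line, and without it the log2 fold change of WT against vector was -5.72, against -4.81 with it. Epb41l4b (chromosome 4, 56991972 to 57143437), a FERM-domain protein of the band 4.1 family of membrane-skeleton linkers, had 15.1, 15.2 and 14.9 CPM in mimetic, 16.8, 17.2 and 16.7 in deficient, 1.46, 1.58 and 0.997 in WT, and 16.2, 19.8 and 17.9 in vector. Deficient and vector overlapped for this gene, mimetic was slightly lower, and WT stood apart. Acox2 (chromosome 14, 8225511 to 8259353), the peroxisomal oxidase of bile acid intermediates and branched fatty acids, had 2.23, 3.21 and 3.08 CPM in mimetic, 2.53, 3.48 and 3.24 in deficient, 0.173, 0.255 and 0.178 in WT, and 4.90, 5.10 and 5.10 in vector. The mutants overlapped each other and lay between WT and vector.

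The WT against vector contrast chose the genes, so its values are a description. Log2 fold changes ran from -7.45 (SE 0.21) in Myo15b, through -6.79 (SE 0.22) in Vil1, -6.68 (SE 0.24) in Cblc and -6.51 (SE 0.1) in Lgals4, to -3.72 (SE 0.13) in Epb41l4b, with a median of -4.85 against -0.01 for all 12027 tested genes. By this measure Myo15b, Vil1 and Cblc held ranks 1, 2 and 3 of all tested genes and Lgals4 rank 5. Lrrc26, Eomes, Stra6, Acox2 and Epb41l4b held ranks 27, 31, 39, 40 and 82. Genes without counts in every library were not analysed, so these ranks leave them out. The order of the top ranks was not stable. Without WT replicate 2, the log2 fold change was -7.02 in Myo15b and -7.79 in Cblc. The 82 genes at or below the value of Epb41l4b were 0.682% of tested genes. Counting error alone put the WT level between 0.332% and 0.887% of vector for Myo15b and between 1.43% and 6.67% for Lrrc26 (exact 95% intervals on the summed counts).

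The mimetic and deficient lines were each compared with vector, which asks how far the acetylation forms of Zeb1 share the WT response. These comparisons use the same vector libraries as the contrast that chose the genes, and share them with each other. Genes chosen partly for high levels in vector tend to stand lower in other lines. Falls against vector are thus partly built in, and the adjusted p values do not allow for this. In mimetic 9 of the 9 genes fell, where 30.9% of all tested genes did and 28.6% rose. The falls ran from 20.5-fold in Vil1 (log2 fold change -4.36, SE 0.17, adjusted p = 1.78e-14, edgeR's quasi-likelihood test) and 10.0-fold in Myo15b (-3.32, SE 0.14, adjusted p = 2.75e-14) to 1.19-fold in Epb41l4b (-0.25, SE 0.1, adjusted p = 0.032). In deficient 6 fell and 1 rose, where 29.8% of all genes fell and 28.4% rose. Vil1 fell 17.5-fold there (-4.13, SE 0.17, adjusted p = 2.66e-14), Myo15b 9.8-fold, Lgals4 5.61-fold, Eomes 2.96-fold, Cblc 2.18-fold and Acox2 1.63-fold (adjusted p = 0.00179). Stra6 rose 1.61-fold in deficient (0.68, SE 0.19, adjusted p = 0.00399). Lrrc26 at 0.15 (95% interval -0.37 to 0.67) and Epb41l4b at -0.09 (95% interval -0.29 to 0.11) did not pass the test in deficient.

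**Figure D2:**
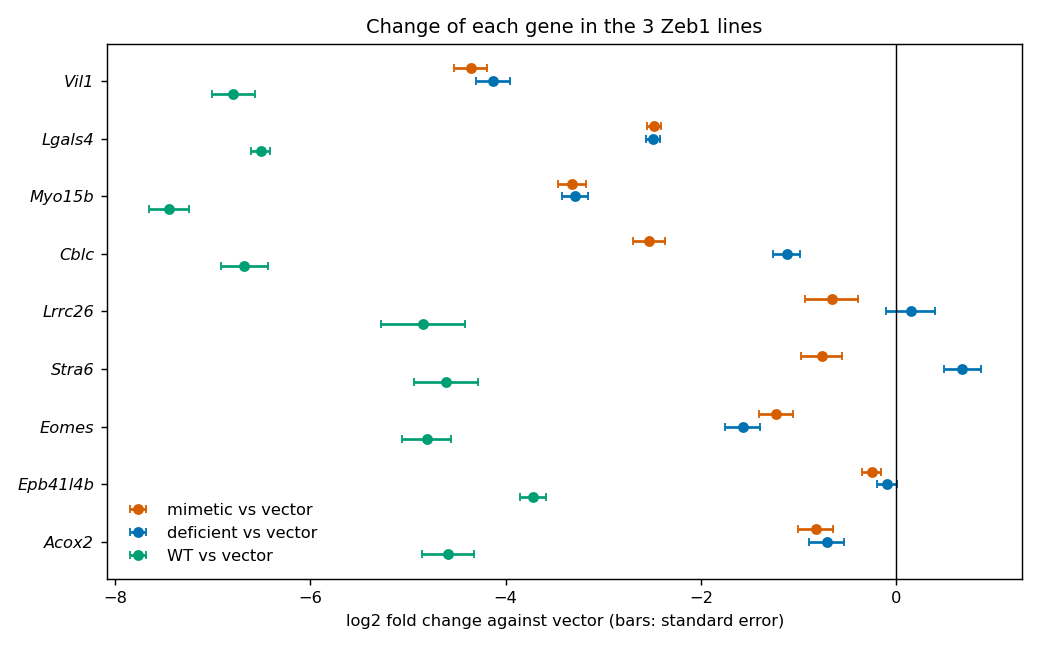
Log2 fold change against vector (horizontal axis) of the 9 genes in mimetic, deficient and WT, with the standard error as bars. WT points lie between -7.45 and -3.72, while the mutants spread from near -4 in Vil1 to about 0 in Epb41l4b. Stra6 (0.68) and Lrrc26 (0.15) are above 0 in deficient only.

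The median over the 9 genes was -1.23 in mimetic and -1.12 in deficient, against 0 for all tested genes in both. Set side by side with the WT value on the log2 scale, the change in mimetic was 64.2% of that in WT for Vil1, 44.6% for Myo15b, 38.1% for Lgals4, 37.9% for Cblc, 25.5% for Eomes, 17.9% for Acox2, 16.5% for Stra6, 13.6% for Lrrc26 and 6.9% for Epb41l4b. In deficient it was 60.8% for Vil1, 44.2% for Myo15b, 38.2% for Lgals4, 32.6% for Eomes, 16.8% for Cblc, 15.4% for Acox2 and 2.4% for Epb41l4b. The sign was opposite for Stra6 (-14.8%) and for Lrrc26 (-3%), which was not called in deficient. Epb41l4b was no longer called in mimetic when mimetic replicate 1, 2 or 3 was left out (adjusted p = 0.0653, 0.0634 and 0.0759), nor without vector replicate 2 (adjusted p = 0.161) or when scaled by library size only (adjusted p = 0.119). Lrrc26 (-0.66, adjusted p = 0.0402) likewise missed the threshold when mimetic replicate 1 or 2 (adjusted p = 0.136 and 0.0898) or vector replicate 1 or 2 (adjusted p = 0.209 and 0.051) was left out, under limma-voom (0.0714) and when scaled by library size only (0.0659).

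Mimetic against deficient compares no library that chose the genes, although the vector and WT libraries enter the shared scaling and estimate of spread. Fitted on these 2 lines alone, it called the same 3 members. Of the 9, 3 were lower in mimetic, where 14.9% of all tested genes were lower and 12.6% higher. Stra6 was 1.77 ± 0.19 CPM in mimetic against 4.83 ± 0.489 in deficient, 2.72-fold lower (log2 fold change -1.44, SE 0.21, adjusted p = 1.9e-05). Cblc was 3.51 ± 0.512 CPM in mimetic against 9.36 ± 0.316 in deficient, 2.66-fold lower (-1.41, SE 0.16, adjusted p = 1.14e-06). Lrrc26 was 1.65 ± 0.316 CPM in mimetic against 2.9 ± 0.684 in deficient, 1.75-fold lower (-0.81, SE 0.27, adjusted p = 0.0299). Lrrc26 missed the threshold when mimetic replicate 1 or 2 (adjusted p = 0.112 and 0.08) or deficient replicate 1 or 3 (adjusted p = 0.106 and 0.0953) was left out, and under limma-voom (0.0519).

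The other 6 genes did not pass the test between the mutants. For Lgals4 the 95% interval of the log2 fold change was -0.15 to 0.16 and for Epb41l4b -0.37 to 0.04. The intervals were wider for Myo15b (-0.36 to 0.31), Acox2 (-0.51 to 0.28), Vil1 (-0.71 to 0.24) and Eomes (-0.05 to 0.73). Eomes was higher in each mimetic library than in any deficient one, with a log2 fold change of 0.34 (SE 0.19, adjusted p = 0.196). With scaling by library size in place of TMM, the counts over all genes moved to 1509 lower and 1982 higher, against 1789 and 1510, and the same 3 members were called.

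**Figure D3:**
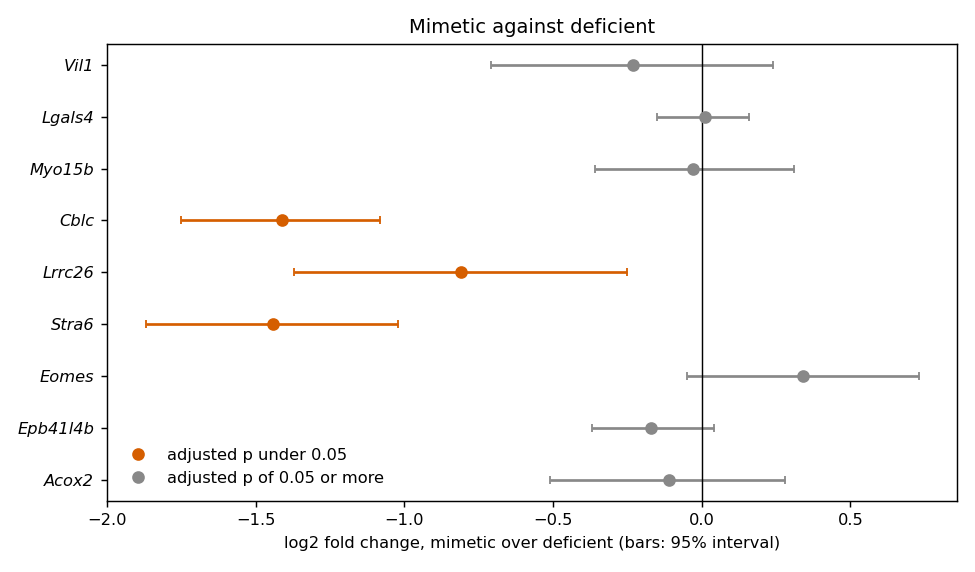
Log2 fold change of mimetic over deficient for the 9 genes, with 95% intervals as bars; orange marks an adjusted p under 0.05. Cblc and Stra6 lie at about -1.4 and Lrrc26 at -0.81, while the intervals of the other 6 genes include 0.

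Both mutants were also compared with WT, whose libraries helped choose the genes. Genes chosen for low levels in WT tend to stand higher in other lines. Higher calls here are thus partly built in and serve only as a description. Relative to WT, mimetic had higher levels of all 9, where 23.1% of tested genes were, with a median of 3.85 on the log2 scale against 0.01 for all genes. All 9 were likewise higher in deficient than in WT, where 27.5% of genes were, with a median of 4.02. The smallest differences were those of Vil1, 5.39-fold higher in mimetic than in WT (95% interval of the log2 fold change 1.73 to 3.12) and 6.32-fold higher in deficient (2 to 3.32). In mimetic, Lrrc26 (log2 fold change 4.19, SE 0.46), Cblc (4.15, SE 0.31) and Myo15b (4.13, SE 0.28) were close together at the upper end. In deficient, Cblc was 47.2-fold higher (5.56, SE 0.26). Without WT replicate 2 the Cblc values became 5.25 in mimetic and 6.66 in deficient. Over all genes, scaling by library size gave 3506 higher and 1980 lower in mimetic than in WT, against 2780 and 2618, and for mimetic against vector 4334 higher and 3004 lower, against 3438 and 3720.

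Another 73 tested genes were lowered in WT at least as far as Epb41l4b, and were set beside the 9 as a description. In mimetic against vector 67 of the 73 were lower and 2 higher, with a median log2 fold change of -2.18 against -1.23 for the 9 genes. In deficient against vector 60 were lower and 9 higher, with a median of -1.71 against -1.12. Between mimetic and deficient, 31 of the 73 were lower and 20 higher, beside 14.9% and 12.6% of all tested genes. The median of the 73 was -0.5 there, against -0.17 for the 9. Among the 73, Gm21738, Gm10800, Gm10801, Gm10717 and Gm10722, named after their values were seen, shared a pattern. Against vector they had log2 fold changes of 1.02 to 1.14 in deficient and of -7 to -5.61 in mimetic. Whether they are separate signals was not tested.

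Since the counting strand is not stated, genes that share a 3' end with a member were read beside it. Vil1 shares 49 exonic bases at its 3' end with Usp37 on the opposite strand, which averaged 75.9 CPM in mimetic, 72.1 in deficient, 67.5 in WT and 76.4 in vector. Myo15b shares 9 such bases with Recql5, which averaged 15.6 CPM in mimetic, 16.3 in deficient, 17.0 in WT and 18.7 in vector. Neither neighbour had the range of its partner. Lrrc26 ends 1 base from the end of Grin1 on the opposite strand, and Grin1 was also lowest in WT and next lowest in mimetic, at 0.729 ± 0.13 CPM in mimetic, 1.15 ± 0.488 in deficient, 0.196 ± 0.0904 in WT and 1.28 ± 0.374 in vector; whether reads of one were counted for the other was not tested. Eomes shares exonic bases with the antisense gene Gm33460, which is not analysed here. Of the 18 tested genes nearest to the members on either side without overlap, 9 were lower in WT than in vector, where 33.6% of all tested genes were, and their median log2 fold change was -0.22. Those under -1 were Llgl2 (-2.48) and Smim6 (-2.97) beside Myo15b, Grin1 (-2.7) beside Lrrc26 and Fam107a (-2.5) beside Acox2, all 4 named after their values were seen.

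Other brush border genes moved in both directions. Only genes with counts in every library could be read, so a brush border gene lost entirely in a line would be left out. Of 40 listed, 25 were tested, of which 14 fell and 7 rose in mimetic against vector (median -0.35), where 30.9% of all tested genes fell and 28.6% rose. In deficient 10 fell and 8 rose (median -0.08), beside 29.8% and 28.4% of all genes, and in WT 13 fell and 7 rose (median -0.28), beside 33.6% and 31%. Falls were thus more frequent on the list than over all genes in mimetic, deficient and WT, as a description without a test. The share that rose was near that of all genes in each of these lines. Among those that fell in all 3 Zeb1 lines were other structural proteins of the microvillus. The actin bundler Pls1 fell to 7.44 ± 0.708 CPM in mimetic, 11.1 ± 0.752 in deficient and 2.01 ± 0.538 in WT, against 46.4 ± 2.26 in vector. Calml4, a calmodulin-like protein of the brush border, fell to 1.93 ± 0.543 CPM in mimetic, 0.855 ± 0.279 in deficient and 0.765 ± 0.295 in WT, against 23.0 ± 0.493 in vector. The membrane-bound myosin Myo1d fell as well, with log2 fold changes of -1.93, -1.55 and -2.89 in mimetic, deficient and WT. Other listed genes rose in all 3 Zeb1 lines. Among them were Fscn1 (log2 fold changes of 0.28, 0.29 and 0.47 in mimetic, deficient and WT) and Tpm1 (0.41, 0.5 and 0.61). Marcks (0.35, 0.21 and 0.2) and Slc9a3r2 (0.82, 1.08 and 0.61) did so too. All of these genes were named after their values were seen.

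The brush border enzyme aminopeptidase N (Anpep) rose more than these, to 14.0 ± 2.59 CPM in mimetic, 3.99 ± 0.348 in deficient and 17.4 ± 1.32 in WT, against 0.144 ± 0.0204 in vector. Between the mutants, 8 of the 25 were lower in mimetic and 3 higher, beside 14.9% and 12.6% of all tested genes. The lower ones included Eps8l2, a relative of the actin regulator Eps8 (-0.89, adjusted p = 4.81e-08), ezrin (Ezr, -0.27, adjusted p = 0.000125) and cingulin (Cgn, -0.96, adjusted p = 2.08e-11), which is better known from tight junctions; Anpep was higher (1.81, adjusted p = 2.49e-09).

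Of 56 gut and foregut identity genes listed, 26 were tested. Here too, genes without counts in every library are left out, which would include any lost entirely in a line. In mimetic 11 fell and 8 rose against vector (median -0.15), beside 30.9% and 28.6% of all genes. In deficient also 11 fell and 8 rose (median -0.2), beside 29.8% and 28.4%, so that the share that rose was near that of all genes in both. In WT 14 fell and 5 rose (median -0.57), beside 33.6% and 31%. The nuclear receptor Hnf4a, a regulator of gut and liver epithelium, fell to 31.2 ± 0.0525 CPM in mimetic, 25.8 ± 2.1 in deficient and 4.19 ± 0.27 in WT, against 174.5 ± 5.62 in vector. Cdx2, the intestinal homeobox factor, moved much less, with log2 fold changes of -0.22 in mimetic, -0.62 in deficient and -0.41 in WT. Both were named after their values were seen. The gut cadherin Cdh17 fell to 27.2 ± 2.1 CPM in mimetic, 19.8 ± 0.276 in deficient and 21.8 ± 0.764 in WT, against 131.5 ± 0.983 in vector, and Vsig1, a junction protein of stomach, to 5.37 ± 0.225, 2.33 ± 0.325 and 1.32 ± 0.541 CPM in the same lines, against 35.8 ± 2.64 in vector. Among those that rose, the claudin Cldn3 reached 26.3 ± 1.81 CPM in mimetic and 44.1 ± 4.37 in deficient, against 16.8 ± 1.13 in vector, and fell to 12.3 ± 0.703 in WT. The foregut factor Sox2, named after its values were seen, rose by 1.34 in mimetic, 1.22 in deficient and 0.65 in WT on the log2 scale. Between the mutants 4 of the 26 were lower and 8 higher in mimetic, beside 14.9% and 12.6% of all tested genes. The share that was lower was thus near that of all genes. Vsig1 (1.21, adjusted p = 1.87e-05) and Cdh17 (0.46, adjusted p = 1.41e-05) were higher there, while the tetraspanin Tspan8 (-0.37, adjusted p = 3.45e-06) and Cldn3 (-0.74, adjusted p = 7.65e-07) were lower.

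**Figure D4:**
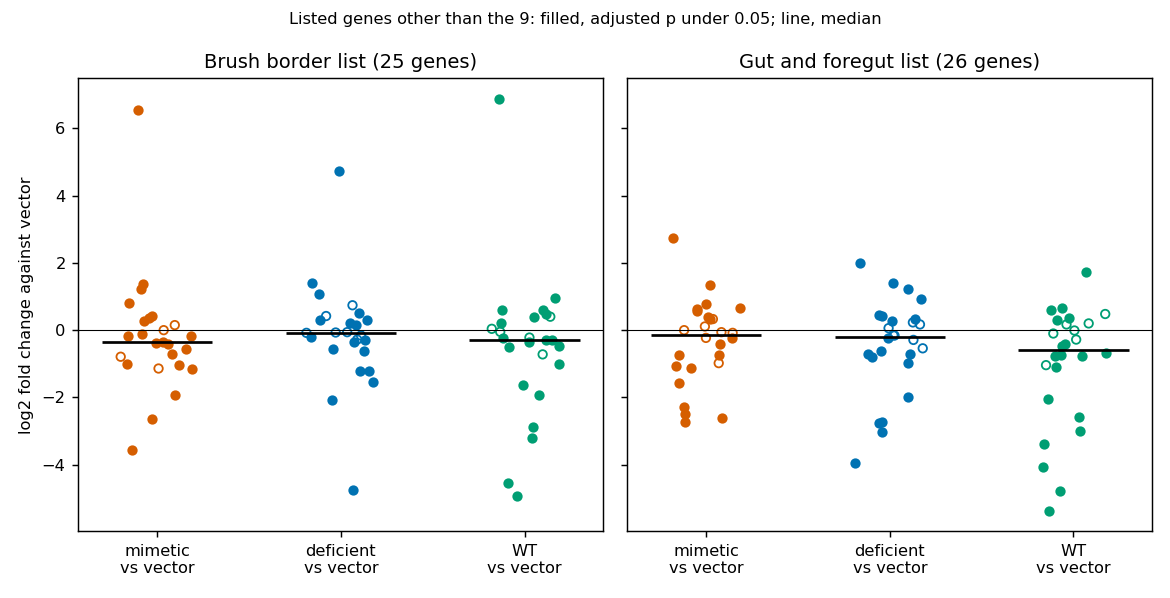
Log2 fold change against vector in mimetic, deficient and WT of the 25 tested brush border genes and the 26 tested gut and foregut genes other than the 9, filled where the adjusted p was under 0.05, with the median as a line. Medians lie between -0.57 and -0.08, and single genes reach -5.37 (Hnf4a in WT) and 6.87 (Anpep in WT).

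Relatives of the members moved in both directions, and their counts are to be read beside the 30.9% of all tested genes that fell and 28.6% that rose in mimetic, and the 29.8% that fell and 28.4% that rose in deficient. Of 6 other villin and gelsolin family genes tested, 5 fell and 1 rose in mimetic against vector, and 4 fell and 1 rose in deficient. Of the 6, 5 were lower in mimetic than in deficient, beside 14.9% of all tested genes. Against vector, the membrane-associated supervillin (Svil) fell by 1.12 on the log2 scale in mimetic and the actin capping protein Capg fell by 0.92, whereas advillin (Avil) rose by 2.81. Of 7 other galectins, 4 fell and 3 rose in both mutants; Lgals2, another gut galectin, fell to 14.98 ± 1.03 CPM in mimetic, 11.1 ± 1.16 in deficient and 5.38 ± 0.519 in WT, against 90.9 ± 5.25 in vector. Of 17 other unconventional myosins, 8 fell and 4 rose in mimetic and 7 fell and 5 rose in deficient. The vesicle motor Myo5b was 16.3 ± 1.95 CPM in mimetic against 43.3 ± 2.86 in deficient (-1.41, adjusted p = 9.25e-11), while its relative Myo5c was lower in all 3 Zeb1 lines, at 104 ± 2.17, 124 ± 1.97 and 56.1 ± 2.28 CPM in mimetic, deficient and WT against 305 ± 13.3 in vector.

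Of 18 genes of the CBL family and its receptor partners, 10 fell and 3 rose in mimetic, and 8 fell and 3 rose in deficient. The receptor Erbb3 fell by 1.67 in mimetic and by 1.12 in deficient on the log2 scale, and the receptor kinase Met fell by 1.42 and 1.07. Of 19 retinoid genes other than Stra6, 7 fell and 6 rose in mimetic and 8 fell and 4 rose in deficient. The retinol dehydrogenase Rdh10 was lower in mimetic than in deficient (-0.49, adjusted p = 1.75e-08), as Stra6 was, while the retinol carriers Rbp4 (0.7, adjusted p = 1.3e-07) and Rbp2 (0.66, adjusted p = 3.85e-05) were higher. Of 7 T-box and endoderm genes other than Eomes, 1 fell and 1 rose in mimetic and 3 fell and 1 rose in deficient; the endoderm factor Gata6 rose by 0.4 in mimetic and by 0.34 in deficient against vector. Of 14 band 4.1 and ERM family genes, 6 fell and 4 rose in mimetic and 4 fell and 5 rose in deficient, the second being near the shares of all genes. Frmd4b was lower in mimetic than in deficient (-0.83, adjusted p = 1.52e-10). Of 21 peroxisomal oxidation genes, 11 fell and 2 rose in mimetic and 8 fell and 3 rose in deficient, with medians of -0.16 in both. Crot, which passes shortened acyl chains on as carnitine esters, rose by 0.67 in mimetic and by 0.17 in deficient, against the direction of Acox2. Ech1 fell as Acox2 did, with log2 fold changes of -0.72 in mimetic and -1.07 in deficient. Lrrc26 was the single gene tested of 9 subunits of the BK channel.

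The members' profiles were compared over the 12 libraries, which share line and depth, by Pearson's r of log2 CPM as a description. Among the 36 pairs r ran from 0.663 (Vil1 and Stra6) to 0.986 (Lgals4 and Myo15b). Outside the set, the profile most like that of both Lgals4 and Myo15b was that of the adhesion molecule Ncam1 (r = 0.994 and 0.993), at 17.0 CPM in mimetic, 17.5 in deficient, 2.52 in WT and 59.0 in vector. For Stra6 the nearest were the choline transporter Slc44a4 (r = 0.99), Smagp and the desmosomal linker Dsp (r = 0.987), whose means were, like that of Stra6, higher in deficient than in vector. For Cblc they were clusterin (Clu), Gpr39 and the tricellular junction gene Marveld2, for Acox2 the planar polarity cadherin Celsr1 (r = 0.993), Kdm6a and Clcn5, and for Eomes Otud5, the sorting receptor Sorl1 and Mif4gd. Vil1 was closest to Smyd3 (r = 0.993), Slc16a1 and Dtx3l, Epb41l4b to the protease Ctsb (r = 0.995), Rbm10 and Loxl2, and Lrrc26 to Tfe3 (r = 0.987), Rsrp1 and Cdk16. The measure compares shape and not size, and Smyd3 averaged 19.9 CPM in mimetic, 20.2 in deficient, 16.8 in WT and 26.8 in vector. By Spearman's rho only 1 of the 27 gene and member pairs was named again.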

How the data were processed

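RNA was measured in 12 libraries of 4 lines by QuantSeq 3' mRNA sequencing, per the labels' protocols. The authors deposited raw counts per gene with no normalisation. The submitters' processing notes name STAR as aligner and mm10 as genome; no version, counter, annotation or strand setting is given in the sources used here. Every listed gene has at least 1 count in all libraries, so genes at 0 in any library are not analysed here. Totals were 24356697 to 39029599 counts per library.

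Differential testing used edgeR 4.0.16 (R 4.3.3). Of 12208 genes, filterByExpr kept 12027. TMM factors and 1 quasi-likelihood model over all libraries were used, with a Benjamini-Hochberg adjusted p under 0.05 over all tested genes, two-sided. "Rose" and "fell" mean such calls. The SE is the log2 fold change divided by the square root of F, and intervals use the model's degrees of freedom; intervals on summed counts cover counting error only. All CPM means are given with n = 3.

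The members and gene lists were chosen with earlier results of these data known. By rule, named genes are the 9 members and up to 4 genes per list with the smallest adjusted p for mimetic against deficient. The 3 genes most like each member with at least 10 CPM in the highest line are also named. Genes named outside this rule are Zeb1, cell type markers, neighbours of the members and those marked as named after their values were seen. Log2 CPM used a prior count of 2. Coordinates are from GENCODE M21 (GRCm38, the assembly of mm10), in which 12195 of 12208 IDs were found. The mimetic against deficient test was also run on counts simulated from the means and fitted spread of these data. Such counts follow the model, so its assumptions were not checked. Alternatives were DESeq2 1.42.0, limma-voom (limma 3.58.1), RLE factors, scaling by library size alone, testing every gene, requiring 5 CPM or more in 3 libraries, only the 2 lines compared, a replicate block and each library left out.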

Additional observations from a re-analysis of the deposited data

How the results depend on the processing

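The number of members called was within 1.5 times its value in each comparison under all alternatives run, except mimetic against deficient with a minimum of 5 CPM in 3 libraries, where 1 was called in place of 3; this filter removed Lrrc26, Stra6 and Acox2. The replicate block left the number of members called at 3, 7, 9, 9 and 9 in mimetic against deficient, deficient against vector, mimetic against vector, deficient against WT and mimetic against WT. Same-numbered libraries did not deviate together (r over 0.1 in 1 of 18 pairs, range -0.08 to 0.13), so the numbers are not read as pairs. The median log2 fold change of the members in WT against vector, -4.85, was -5.11 with limma-voom and -6.6 with that filter, and ran from -5.72 to -4.82 with 1 library left out. Only uncalled values changed sign. In mimetic against deficient, Myo15b was 0.00055 with library size only, and with 1 library left out Myo15b ran from -0.16 to 0.14, Lgals4 from -0.04 to 0.09 and Acox2 from -0.24 to 0.03. In deficient against vector, Lrrc26 ran from -0.0036 (without vector replicate 3) to 0.36. The causes were not tested. Of the 27 gene and member pairs named by Pearson's r, 1 was named by Spearman's rho. Of the 8 members with a window, CAGGTA or TACCTG was held by 1 (Vil1), beside 13.6% of all genes, and CANNTG by 6, beside 75% of all genes, so neither count stands apart from all promoters. The low counts of Lrrc26 and Stra6 in WT limit the precision of their changes.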
